A study of Mus musculus with 2 samples.

Results

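The Notch pathway genes described here are the receptors Notch1, Notch2 and Notch3, the ligands Dll1, Dll3, Jag1 and Jag2, and the target genes Hes1, Hes5 and Hey1. They were chosen by name and matched by Ensembl identifier, which found all 10 among the 43346 genes of the deposited tables, of which 21474 are protein-coding. Levels were measured by RNA-seq of total RNA depleted of ribosomal RNA, in forebrain of newborn mice of strain B6NTac;B6NCrl/Lap at postnatal day 0. The 2 libraries form 1 group with no second genotype, treatment, age or tissue, so the comparisons are between genes and between the libraries. Replicate 2 came from a pool of mice whose size is not given in the labels, and replicate 1 from 15 mice, with both sexes pooled in each. The labels call the tissue isolates independent but give both the same donor identifier, so each SD below covers the spread between these isolates only (n = 2 libraries throughout).

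Notch receptors sit at the cell surface and are activated by ligands of the Delta-like and Jagged families on neighbouring cells. Activation leads to cleavage by ADAM proteases and γ-secretase, and the freed intracellular domain binds the DNA-binding protein RBPJ and Mastermind coactivators to switch on Hes and Hey genes. In the developing forebrain, Hes proteins are known to repress proneural factors in radial glia, the neural stem cells, while newborn neurons display ligand.

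The tables held 65912060 expected counts in replicate 2 and 62516003 in replicate 1. Protein-coding genes took 22.0% of TPM in replicate 2 and 13.5% in replicate 1, the rest being held by all other features. Levels are therefore given as coding TPM, in which the protein-coding genes of a library are rescaled to add up to 1000000. All 6 telencephalic factors examined were at 1 coding TPM or more in both libraries, with a summed level of 284 coding TPM in replicate 2 and 298 in replicate 1. None of 8 hindbrain and spinal cord genes reached that level, and 6 of them were at 0 counts in both, where a count of 0 allows up to 3 counts of the library. Radial glia markers summed to 2156 coding TPM in replicate 2 and 2140 in replicate 1, and neuronal markers to 5582 and 5744. Markers of endothelium, pericytes, meninges, choroid plexus and microglia were also present.

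All 10 Notch pathway genes were at 1 coding TPM or more in both libraries, against 63.3% of protein-coding genes (13596 of 21474). Hes5 had the highest mean level of the 10 genes, at 92.8 ± 4.76 coding TPM (SD), above 89.98% of protein-coding genes. Jag1 had the lowest mean level, at 7.33 ± 3.69 coding TPM, above 48.8% of protein-coding genes, although in replicate 2 Hes1 and Dll3 lay below it. The median over the 10 genes was 23.9 coding TPM in replicate 2 and 19.1 in replicate 1, and over all protein-coding genes 8.81 in replicate 2 and 7.46 in replicate 1. In tissue RNA, fewer cells that use a gene and less RNA per cell cannot be told apart.

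**Figure D1:**
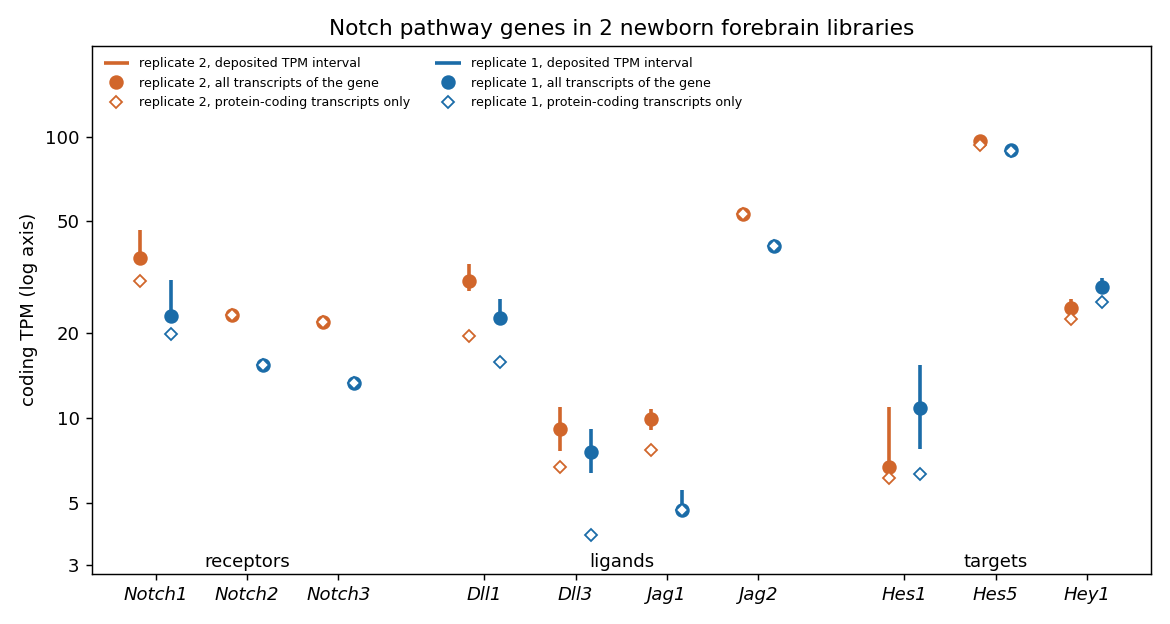
Coding TPM (log axis) of each Notch pathway gene in replicate 2 (orange) and replicate 1 (blue), with filled circles for all transcripts of the gene, open diamonds for its protein-coding transcripts and lines for the deposited TPM intervals. Hes5 lies highest, at 96.2 and 89.4 coding TPM, and the diamonds of Dll1, Dll3 and replicate 1 of Hes1 lie well below their circles.

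In order of mean level the genes were Hes5, Jag2, Notch1, Hey1, Dll1, Notch2, Notch3, Hes1, Dll3 and Jag1. The ranges of the 2 libraries did not overlap between Hes5 and Jag2, between Jag2 and Notch1, and between Notch3 and Hes1. The ranges of the other 6 of the 9 neighbouring pairs overlapped, which are the neighbours from Notch1 to Notch3 and from Hes1 to Jag1. Neighbours stood in the same order in both libraries in 5 of the 9 pairs, among them Dll1 over Notch2, with log2 ratios of 0.41 in replicate 2 and 0.56 in replicate 1 despite overlapping ranges. By protein-coding transcripts alone the order of the means changed. Dll1 was at a mean of 17.7 coding TPM, below Notch2 at 19.3 and level with Notch3 at 17.6. Dll3 had the lowest mean at 5.26, below Hes1 at 6.24 and Jag1 at 6.20. Neither change held in both libraries. In replicate 1 Dll1, at 15.8, was above Notch2 at 15.4 and Notch3 at 13.4. In replicate 2 Hes1, at 6.13, was below Dll3 at 6.67.

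Among the receptors, Notch1 had the highest level in both libraries, followed by Notch2 and Notch3. Notch1 (ENSMUSG00000026923.11, mm10 chr2:26457903-26516663, minus strand), the receptor with the best known part in maintaining neural progenitors, was at 37.2 coding TPM in replicate 2 and 23.0 in replicate 1 (mean 30.1 ± 10.001 SD). These point estimates fell below the deposited intervals of Notch1, which ran from 37.4 to 46.7 coding TPM in replicate 2 and from 24.0 to 30.9 in replicate 1, and the deposited posterior means were 41.4 and 26.9. Notch1 was the only gene of the 10 whose point estimate lay outside its own interval, and its level carries that uncertainty besides the spread between libraries.

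Notch2 (ENSMUSG00000027878.10, chr3:98013527-98150361, plus strand), which acts beside Notch1 in neural progenitors, was at 23.2 coding TPM in replicate 2 and 15.4 in replicate 1 (mean 19.3 ± 5.46 SD). Notch3 (ENSMUSG00000038146.7, chr17:32120820-32166852, minus strand), known for its role in pericytes and arterial smooth muscle as well as in neural progenitors, was at 21.9 and 13.4 (mean 17.6 ± 6.05 SD). Every receptor was higher in replicate 2, and the range of Notch2 over the libraries overlapped both of the others, but the ratios within a library varied little. The level of Notch2 was 0.623 times that of Notch1 in replicate 2 and 0.670 times in replicate 1, a mean log2 ratio of -0.63 ± 0.07 (SD). The level of Notch3 was 0.590 times that of Notch1 in replicate 2 and 0.580 times in replicate 1 (mean log2 ratio -0.77 ± 0.02 SD). Both ratios kept the same order in each library and the deposited intervals did not overlap, although counting protein-coding transcripts alone brought them nearer to 1, at 0.753 and 0.774 for Notch2 and 0.713 and 0.670 for Notch3. Notch2 was 1.06 times Notch3 in replicate 2, where their intervals overlapped, and 1.15 times in replicate 1. Notch1 accounted for 45.2% of the summed coding TPM of these receptors in replicate 2 and 44.4% in replicate 1.

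Among the ligands, Jag2 had the highest level and Dll1 the next, with Dll3 and Jag1 well below. Jag2 (ENSMUSG00000002799.5, chr12:112907819-112929776, minus strand), a Jagged ligand, was at 53.0 coding TPM in replicate 2 and 40.8 in replicate 1 (mean 46.9 ± 8.59 SD). Dll1 (ENSMUSG00000014773.9, chr17:15367354-15376872, minus strand), the Delta-like ligand that differentiating neural cells present to progenitors, was at 30.8 and 22.7 (mean 26.8 ± 5.68 SD). Jag2 exceeded Dll1 by 1.72 times in replicate 2 and 1.80 times in replicate 1, so the ratio varied less than the levels themselves.

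Dll3 (ENSMUSG00000003436.11, chr7:28293553-28302238, minus strand), a Delta-like protein known to act within the cell that makes it and not to activate receptors on neighbours, was at 9.17 coding TPM in replicate 2 and 7.61 in replicate 1 (mean 8.39 ± 1.11 SD). Its level was 0.298 times that of Dll1 in replicate 2 and 0.334 times in replicate 1, a mean log2 ratio of -1.66 ± 0.12 (SD). Jag1 (ENSMUSG00000027276.7, chr2:137081456-137116644, minus strand), a Jagged ligand with known roles in vessels and in neural progenitors, was at 9.94 in replicate 2 and 4.73 in replicate 1. Over all transcripts Jag1 was the most uneven of the 10 genes between the libraries, and its range overlapped that of Dll3. Jag2 was 5.33 times Jag1 in replicate 2 and 8.64 times in replicate 1 (mean log2 ratio 2.76 ± 0.49 SD), a gap well beyond the spread of either gene. Jag2 made up 51.5% of the summed coding TPM of the 4 ligands in replicate 2 and 53.8% in replicate 1, while Jag1 made up 9.66 and 6.23%.

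Among the targets, Hes5 led, with Hey1 next and Hes1 lowest in both libraries. Hes1, Hes5 and Hey1 are basic helix-loop-helix repressors. Hes proteins recruit Groucho/TLE corepressors through a short peptide at or near the end of the protein, tryptophan-arginine-proline-tryptophan. Hey1 carries a form of the peptide that starts with tyrosine, and Hey proteins are known to recruit other corepressors through the basic helix-loop-helix region. The coding sequence of these ends is shown because the peptide differs between the families and gives the Hey family its name, read from the GENCODE M21 transcripts on GRCm38, with the codons of the peptide in capitals.
Hes1-201, chr16:30067399-30067428, plus strand: gactccatgTGGAGACCGTGGcggaactga
Hes5-201, chr4:154961652-154961675, plus strand: tgcggcctcTGGCGGCCCTGGtga
Hey1-201, chr3:8664511-8664540, minus strand: ggcaagcccTATAGACCTTGGgggacagag
The peptide is the last coding element of Hes5, a protein of 167 residues, is followed by 2 codons in Hes1, of 282 residues, and by 7 codons in Hey1, of 299 residues, so the Hey1 stretch stops short of its stop codon.

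Hes5 (ENSMUSG00000048001.7, chr4:154960923-154962371, plus strand), the Hes repressor most closely tied to Notch activity in neural progenitors, was at 96.2 coding TPM in replicate 2 and 89.4 in replicate 1. Hey1 (ENSMUSG00000040289.4, chr3:8663359-8667256, minus strand), a repressor known from vessels and neural progenitors, was at 24.6 and 29.2 (mean 26.9 ± 3.28 SD), higher in replicate 1. Hes1 (ENSMUSG00000022528.7, chr16:30064384-30067796, plus strand), a repressor shared by many progenitor types and also inducible without Notch, was at 6.67 and 10.9 (mean 8.76 ± 2.96 SD), on 178 and 185 counts. The difference of Hes1 in coding TPM lay in a short transcript described below, since its protein-coding transcript was at 6.13 coding TPM in replicate 2 and 6.35 in replicate 1. Hes5 was 14.4 times Hes1 in replicate 2 and 8.24 times in replicate 1 (mean log2 ratio 3.45 ± 0.57 SD), and 15.2 and 14.01 times by protein-coding transcripts. Hey1 was 3.69 times Hes1 in replicate 2 and 2.69 times in replicate 1 (mean log2 ratio 1.66 ± 0.32 SD). Hes5 held 75.5% of the summed coding TPM of these targets in replicate 2 and 69.0% in replicate 1.

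Because Hes5 stood highest and is a known direct RBPJ target, the 250 bases before its start site are shown, from the RefSeq promoter table on GRCm38.p6, with the RBPJ core letters TGGGAA, or their reverse complement, in capitals.
Hes5 upstream, chr4:154960673-154960922, plus strand: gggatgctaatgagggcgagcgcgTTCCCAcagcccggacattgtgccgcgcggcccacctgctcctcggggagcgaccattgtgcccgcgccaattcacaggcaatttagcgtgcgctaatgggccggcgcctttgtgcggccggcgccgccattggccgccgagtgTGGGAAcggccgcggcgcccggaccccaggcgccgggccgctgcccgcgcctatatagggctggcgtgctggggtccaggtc
Matches began at -82 on the plus strand and at -226 on the minus strand relative to the start site. Promoter windows of 300 bases, 250 before and 50 after a start site, were found for 8 of the 10 genes, giving 9 windows. No window was found for Hes1 or Hey1, so these targets were not searched. All windows but that of Hes5 belong to receptors and ligands. The core was in 1 of these 9 windows, that of Hes5, and in 25.6% of all 32851 promoters of that length (8397), searching both strands. The N-box CACNAG, a sequence that Hes proteins bind, was in 4 of the 9 windows and in 42.5% of all promoters (13955). The Hes5 window had a GC content of 72.7%, against a median of 52.7% over all promoters. A letter match is not a measured binding site, and these data hold no measurement of RBPJ binding.

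The transcript tables split 7 of the 10 genes into several transcripts, while Notch2, Notch3 and Jag2 had 1 each. The leading transcript was protein-coding and the same in both libraries for all 7. Of the 35 transcripts of the 10 genes, 23 were noncoding (retained introns or processed transcripts) and 11 were at 0 counts in both libraries. Noncoding transcripts held far more of the TPM than of the counts, because they are short and TPM divides by length.

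Dll3 had the largest noncoding part of any of the 7 genes in replicate 1, with 27.2% of its TPM in replicate 2 and 49.4% in replicate 1 in retained-intron transcripts, on 32.80 and 46.51 counts. Most of that lay in Dll3-203, a retained intron of 855 nt, at 21.49% of Dll3 TPM in replicate 2 and 37.93% in replicate 1. Dll3-201, which codes for the protein, held 72.79 and 50.60%. By protein-coding transcripts alone Dll3 was at 6.67 coding TPM in replicate 2 and 3.84 in replicate 1.

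Dll1 carried 36.6% of its TPM in noncoding transcripts in replicate 2 and 30.6% in replicate 1, led by the retained introns Dll1-202 (19.69 and 14.73%) and Dll1-204 (11.20 and 15.84%). These transcripts took only 7.85% of Dll1 counts in replicate 2 and 6.49% in replicate 1. The share was similar in both libraries, and the protein-coding transcripts of Dll1 were at 19.5 and 15.8 coding TPM.

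In Hes1 the retained intron Hes1-203, of 406 nt, held 8.43% of TPM in replicate 2 and 41.93% in replicate 1, on 1.86 and 15.85 counts. Few counts thus moved the TPM of the gene, and the coding transcript Hes1-201 took 176.14 counts in replicate 2 and 169.15 in replicate 1. In Jag1 the retained intron Jag1-202, of 1463 nt, held 22.81% of TPM in replicate 2 and 1.29% in replicate 1, on 64.99 and 1.64 counts. Without it Jag1 was at 7.67 coding TPM in replicate 2 and 4.73 in replicate 1.

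Notch1 had 17.35% of its TPM in noncoding transcripts in replicate 2 and 13.45% in replicate 1, mainly Notch1-205, a retained intron of 4132 nt, and Notch1-207, of 434 nt. Notch1-207 held 8.78% of TPM in replicate 2 on 13 counts and 1.06% in replicate 1 on 1 count. Hey1 had 8.43 and 11.9%, and Hes5 3.18 and 0.50%, so Hes5 RNA was almost entirely the coding form.

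**Figure D2:**
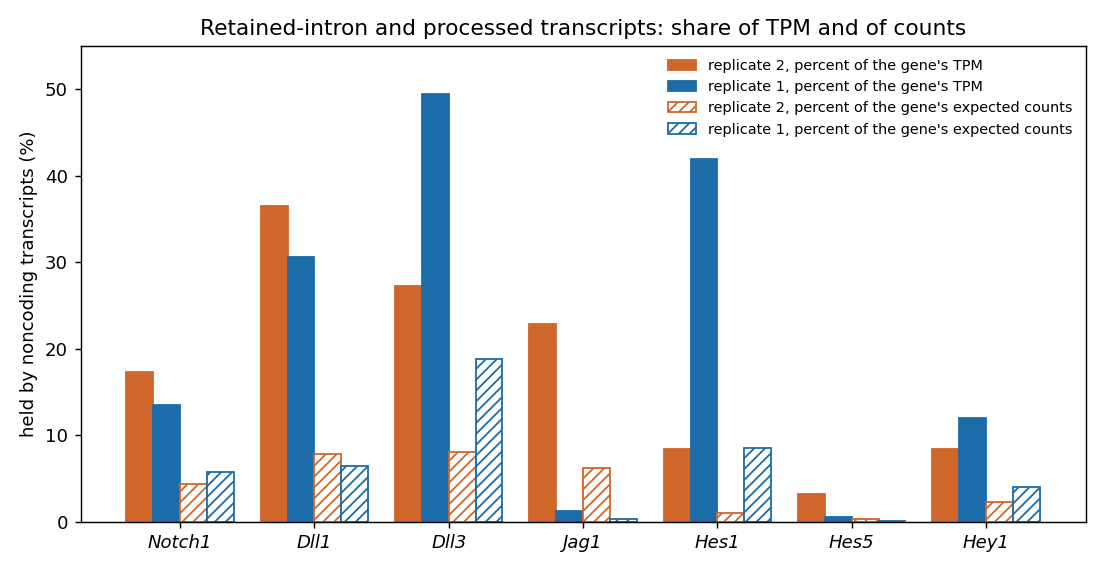
Percent of each gene's TPM (solid bars) and of its expected counts (hatched bars) held by noncoding transcripts, in replicate 2 (orange) and replicate 1 (blue), for the 7 genes with several transcripts. Solid bars are taller than hatched bars in every gene, and replicate 1 stands out in Dll3 (49.4% of TPM) and Hes1 (41.93%).

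Several of the genes overlap others on the opposite strand. Dll1 overlaps A930024N18Rik, at 125 counts in replicate 2 and 100 in replicate 1, and Notch1 overlaps 0610009E02Rik, at 88 and 48 counts. Notch3 overlaps the antisense gene Gm17276, at 93 and 19 counts, and Hes5 overlaps Gm20421, at 10 counts in each. The libraries are stranded per the labels, but whether counting used strand is not stated, so how reads were divided between these partners is uncertain. Each partner had far fewer counts than its Notch pathway gene.

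Between the libraries, none of the 10 genes differed by 2-fold or more in TMM-scaled counts, against 11.0% of the 17544 genes whose counts averaged 10 or more (1929 genes). Those include noncoding genes. Of the 15187 protein-coding genes among them, 637 were at least 2-fold higher in replicate 2 and 515 at least 2-fold lower. TMM scaling sets the libraries to a common level over most genes. The intervals beside the ratios cover counting error only, since they treat each read as an independent draw and hold no spread between libraries. Reads copied by PCR and carrying no molecular identifier do not each stand for a molecule, so the intervals may be too narrow even for counting error. With 1 library on each side no ratio has a replicate check. In TMM-scaled counts the 7 receptors and ligands were all higher in replicate 2 and the 3 targets all lower, although Hes5 turned to the other side of 0 in 3 of 11 alternative calculations. This split by role did not extend to the other pathway genes described below. The 6 other genes listed with the targets and past the count filter had ratios in both directions, with a median log2 ratio of 0.25. The 4 other ligands had a median of 0.30, but Dll4 was at -0.57.

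Notch3 had 4098 counts in replicate 2 and 2290 in replicate 1, a log2 ratio of 0.56 (95% counting interval 0.49 to 0.63). Notch1, with 7126 and 4287 counts, had a ratio of 0.45 (0.40 to 0.51). Notch2, with 5698 and 3470 counts, had a ratio of 0.44 (0.38 to 0.50). The receptors therefore differed by close amounts in the same direction. Jag1, with 1049 counts in replicate 2 and 555 in replicate 1, had the largest ratio at 0.64 (0.49 to 0.79). It was the only gene of the 10 past 1.5-fold, a mark passed by 22.4% of genes. In coding TPM its log2 ratio was 1.07, past 2-fold with the retained intron included, and 0.92 relative to the median of protein-coding genes, which was itself 0.15 on that scale.

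The other ligands were nearer to 0. Dll3, with 410 counts in replicate 2 and 247 in replicate 1, had a log2 ratio of 0.45 (0.22 to 0.69). Jag2, with 4823 and 3414 counts, had a ratio of 0.22 (0.16 to 0.28), and Dll1, with 1671 and 1234, a ratio of 0.16 (0.05 to 0.27). Among the targets, Hey1, with 1195 counts in replicate 2 and 1281 in replicate 1, had a log2 ratio of -0.38 (-0.49 to -0.26). Hes1 had a ratio of -0.33 (-0.64 to -0.03). Hes5, with 2255 and 2003 counts, had a ratio of -0.11 (-0.20 to -0.02), but 0.10 in coding TPM, 0.09 with library totals, which raise every ratio by 0.20, and 0.03 once the trend with length and GC content was removed. The direction of Hes5 therefore changed with the scale.

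**Figure D3:**
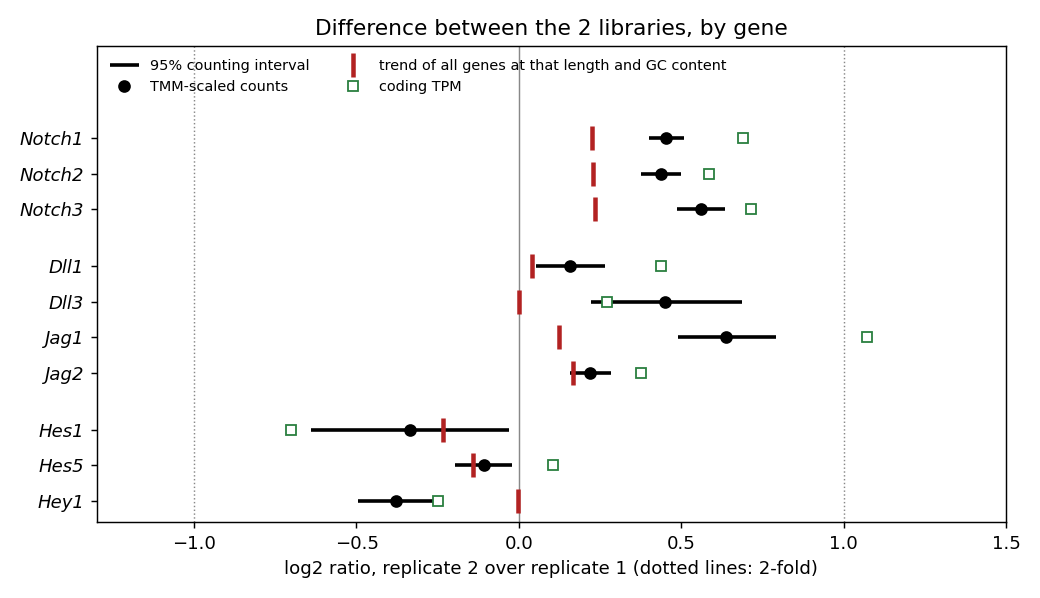
Log2 ratio of replicate 2 over replicate 1 for each Notch pathway gene, as TMM-scaled counts with 95% counting intervals (black), as coding TPM (green squares) and as the trend of all genes at that length and GC content (red bars), with dotted lines at 2-fold. Receptors and ligands lie right of 0 by counts and targets left of it (Hes5 right of it in coding TPM), the red bars of the receptors and of Hes1 and Hes5 lie on the same sides, and only the coding TPM of Jag1 (1.07) passes a dotted line.

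The median log2 ratio was 0.33 over the 10 genes, 0.45 over receptors, 0.34 over ligands and -0.33 over targets, against -0.003 over all genes tested. Over all genes the middle range from the lower to the upper quartile ran from -0.27 to 0.26. Transcript length moved with these ratios. Protein-coding genes averaging 100 counts or more had a median log2 ratio of 0.18 at 8000 nt or more (347 genes) and of -0.46 under 1000 nt (796 genes), and mean fragment length was 269.7 nt in replicate 2 and 248.7 nt in replicate 1. The receptors are among the longest transcripts, at 8481 nt for Notch1, 10506 nt for Notch2 and 8044 nt for Notch3, while Hes1 averaged 1201 nt and Hes5 1256 nt. The trend of all genes at the length and GC content of each receptor was 0.23 for Notch1, 0.23 for Notch2 and 0.24 for Notch3, and it was -0.23 for Hes1 and -0.14 for Hes5. With the trend removed, the ratios of the receptors were smaller, at 0.23 for Notch1, 0.21 for Notch2 and 0.32 for Notch3. Those of the ligands were 0.12 for Dll1, 0.45 for Dll3, 0.52 for Jag1 and 0.05 for Jag2. Those of the targets were -0.10 for Hes1, 0.03 for Hes5 and -0.38 for Hey1, and the median over the 10 genes was 0.16. How far library preparation contributed was not tested.

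Cell type markers also differed between the libraries, where 11.0% of all genes tested were at least 2-fold apart. The 5 meningeal fibroblast markers summed to 627 coding TPM in replicate 2 and 198 in replicate 1, with none at 0, a median log2 count ratio of 1.19 and 3 of 5 past 2-fold. The 7 pericyte and smooth muscle markers summed to 137 and 93.6 coding TPM, with none at 0, a median log2 ratio of 0.40 and 2 of 7 past 2-fold. The 7 endothelial markers summed to 301 coding TPM in replicate 2 and 232 in replicate 1 (median log2 ratio 0.32, none past 2-fold). These lists stand beside Notch3 and Jag1, which vessel cells are known to use, and their part in the ratios of those genes was not tested. The 5 diencephalic and hypothalamic markers summed to 58.2 coding TPM in replicate 2 and 31.8 in replicate 1, with 3 of 5 past 2-fold. The 8 radial glia markers had a median log2 ratio of 0.08 and the 5 neuronal markers one of -0.22, with none past 2-fold in either list. Within the radial glia list the ratios ran from -0.40 for Fabp7 to 0.78 for Pax6. The 3 intermediate progenitor markers had a median of 0.21 and the 3 ependymal markers one of 0.43. Medians were -0.38 over the 4 choroid plexus markers, -0.39 over the 5 oligodendrocyte precursor markers and -0.11 over the 5 microglial markers. Each of these lists held ratios in both directions. They ran from -0.85 for Ttr to 0.16 for Aqp1 in choroid plexus and from -0.50 for Olig1 to 0.27 for Cspg4 in oligodendrocyte precursors. In microglia they ran from -1.07 for Aif1, the only marker of these lists past 2-fold, to 0.22 for Cx3cr1.

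Of 66 other genes of the pathway, sorted into lists by role, 60 were at 1 coding TPM or more in both libraries. The share over all protein-coding genes was 63.3%. Of the 63 past the count filter, 3 were at least 2-fold higher in replicate 2 and none was 2-fold lower. By the same rule, 11.0% of all 17544 genes past the filter were 2-fold apart. The median log2 ratio of the 63 genes was 0.08. Over all 66 genes the median level was 36.0 coding TPM in replicate 2 and 33.1 in replicate 1, above the medians of the 10 genes. Notch4, a receptor known mainly from endothelium, was at 15.4 coding TPM in replicate 2 and 2.73 in replicate 1, on 721 and 297 counts.

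**Figure D4:**
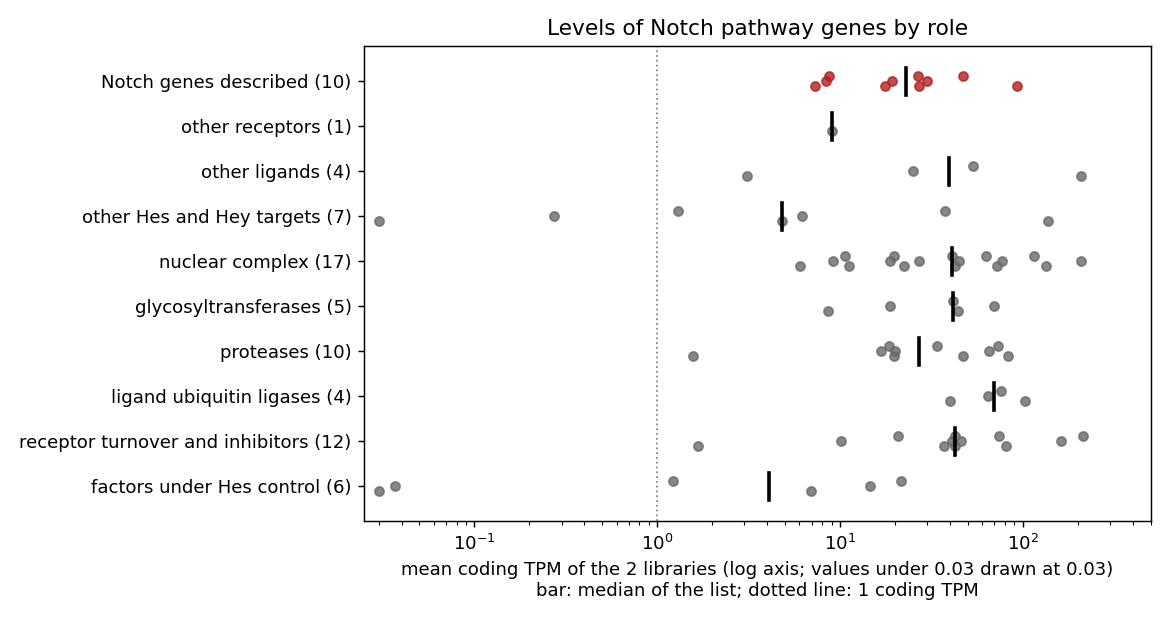
Mean coding TPM of the 2 libraries (log axis) for each Notch pathway gene (red, top row) and for the other pathway genes by role (grey), with the number of genes in parentheses, a bar at each median and a dotted line at 1 coding TPM. The 10 genes span 7.33 to 92.8 coding TPM. Genes left of the dotted line occur only in the row of other Hes and Hey targets, which includes Nrarp, and among the factors under Hes control.

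All 4 other ligands reached 1 coding TPM in both libraries, and none was 2-fold apart. Dner, a neuronal transmembrane protein that can bind Notch, was at 254 coding TPM in replicate 2 and 160 in replicate 1, above every receptor and ligand of the 10 genes. Dlk2, a noncanonical ligand, was at 59.0 and 48.4, and Dll4, the ligand of sprouting vessels, was lowest at 2.68 and 3.54. Of 7 other genes listed with the targets, which are Hes and Hey family genes and Nrarp, 5 reached 1 coding TPM in both libraries. They were listed by name, and whether Notch drives them in this tissue was not tested. Hes6, which is known to oppose Hes1 and promote neuronal differentiation, was at 127 coding TPM in replicate 2 and 149 in replicate 1, and Nrarp, a feedback inhibitor induced by Notch, at 38.4 and 37.0. Hes2 was not detectable at this depth, with 1 and 0 counts. Hes3 was past 2-fold on only 21 counts in replicate 2 and 1 in replicate 1.

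All 17 genes of the nuclear complex, which holds RBPJ, its coactivators and its corepressors, reached 1 coding TPM in each library. Their median level was 41.2 coding TPM in replicate 2 and 37.4 in replicate 1. Hdac2, a histone deacetylase, was at 232 and 186 coding TPM. Bend6, a corepressor known to restrain Notch targets in neurons, was at 119 and 148, and Maml2, a Mastermind coactivator, was lowest at 6.08 and 5.98. Rbpj itself, named after its values were seen, was at 20.7 coding TPM in replicate 2 and 16.6 in replicate 1, near the levels of Notch2 and Notch3.

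All 5 glycosyltransferases that add sugars to the receptors reached that level too. The Fringe enzymes Rfng and Lfng had the highest means, Rfng at 79.6 coding TPM in replicate 2 and 60.0 in replicate 1, and Lfng at 35.7 and 52.6. Mfng, the remaining Fringe enzyme, was lowest at 11.0 and 6.20. Of 10 proteases and γ-secretase subunits, 9 were at 1 coding TPM or more in both libraries. Psenen and Aph1a, γ-secretase subunits, were at 71.1 and 87.1 coding TPM in replicate 2 and at 95.7 and 59.4 in replicate 1. Aph1c, another form of the Aph1 subunit, was lowest, at 2.18 and 0.960 coding TPM, and was past 2-fold with a log2 count ratio of 1.01 on 258 and 105 counts.

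All 4 ubiquitin ligases that act on ligands reached 1 coding TPM in both libraries, from Mib2 at 112 coding TPM in replicate 2 and 95.03 in replicate 1, and Mib1 at 80.2 and 71.0, and down to Neurl1a at 44.4 and 36.0. All 12 genes of receptor turnover and inhibition did so as well. Of the Deltex genes, Dtx3, at 235 coding TPM in replicate 2 and 192 in replicate 1, and Dtx1, at 182 and 142, were highest and Dtx3l, at 2.22 and 1.11, was lowest. Of 6 proneural factors under Hes control, 3 reached 1 coding TPM in both libraries. Neurod1, a factor of differentiating neurons, was at 15.3 coding TPM in replicate 2 and 13.7 in replicate 1. Atoh1, a factor of hindbrain and cerebellar progenitors, had 0 counts in replicate 2 and 1 in replicate 1, not detectable at this depth. Neurod4 was at 1.77 coding TPM in replicate 2 and 0.665 in replicate 1 and was past 2-fold, with a log2 count ratio of 1.25 on 131 and 45 counts.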

How the data were processed

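The authors deposited gene and transcript tables of each library on mm10 with GENCODE M4, per the text supplied with each sample, with no aligner or quantifier named in the sources used here. The deposited expected counts, with their posterior means and posterior SDs, need not be whole where features share reads, and were rounded for scaling. The deposited TPM values and their interval bounds sum over all features, and the deposited FPKM values were used as an alternative only. The deposited isoform percentages give each transcript's share of its gene's TPM, per the file headers.

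Symbols and coordinates came from GENCODE M21, which matched 42462 of 43346 genes (98.0%), and unmatched genes held 0.138% of counts in replicate 2 and 0.15% in replicate 1. The 26248 tRNA entries and the spike-ins, with 1.24 and 1.72% of counts, were left out of library sizes. TPM was rescaled to a sum of 1000000 over protein-coding genes (multiplied by 4.54 in replicate 2 and 7.38 in replicate 1). Counts were scaled by TMM (edgeR 4.0.16, R 4.3.3) over genes averaging 10 counts or more, with DESeq2 1.42.0 size factors as an alternative, and ratios had 0.5 added to each count. Intervals are 95% exact binomial. No test was made: the design has no second group, and ratios between genes are taken within each library and given with their SD over 2 libraries. A spline with 5 degrees of freedom, fitted to 13568 genes averaging 100 counts or more, gave the trend with length and GC content and covered 17345 of 17544 genes (98.9%). Steps were tested on simulated data. Python 3.11.15, numpy 2.4.6, scipy 1.17.1, pandas 2.3.3, patsy 1.0.2 and matplotlib 3.10.9 served the other steps. Alternatives were other thresholds, filters, scalings, pseudocounts, estimates, lengths and transcript sets, and each library alone.

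Named are all 10 genes and, of each other list, the highest 2 and the lowest by mean coding TPM and any gene at least 2-fold apart, except for a gene that is not reported here. Likeness of pattern to other genes was not computed. The genes and lists were chosen with earlier results of these data known. No column of another series was used (0).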

Additional observations from a re-analysis of the deposited data

How the results depend on the processing

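No paired analysis was possible because the design has 1 group and so no groups to pair. The median ratio of the 10 genes and the log2 ratios of the 6 gene pairs given here kept their sign in the alternatives run, and of the 10 single genes only Hes5 changed sign between the libraries, in 3 of 11 alternatives. Library totals raised every ratio by 0.20, the median of all genes included, and no alternative was run for the medians by role or marker list or for other gene pairs beyond protein-coding transcripts. The count of the 10 genes past 2-fold, 0 as reported, was 1 by the ratio of coding TPM and 1 at 1.5-fold, Jag1 in each case. Their median log2 ratio, 0.33 as reported, was 0.52 with library totals, 0.41 in coding TPM and 0.16 with the length and GC trend removed, an alternative chosen after seeing the data, as were coding TPM relative to the coding median and levels by protein-coding transcripts. The median of protein-coding genes in coding TPM was itself shifted by 0.15, and relative to it the median of the 10 genes was 0.26. The log2 ratio of Notch2 over Notch1, -0.63 as reported, was -0.84 with posterior mean TPM and -0.39 with protein-coding transcripts, and that of Notch3 over Notch1, -0.77 as reported, was -0.98, -0.53 and, with 0.1 added to TPM, -0.75. Dll3 over Dll1 was -1.79 with protein-coding transcripts. The count of other pathway genes past 2-fold, 3 as reported, was 4 with DESeq2 size factors, 5 with library totals and 12 at 1.5-fold. In single libraries the log2 ratios ran from -0.68 to -0.58 for Notch2 over Notch1, -0.79 to -0.76 for Notch3 over Notch1, -1.75 to -1.58 for Dll3 over Dll1, 2.41 to 3.11 for Jag2 over Jag1, 3.04 to 3.85 for Hes5 over Hes1 and 1.43 to 1.88 for Hey1 over Hes1. The number of the 10 genes at 1 coding TPM was 10 in each, and that of other pathway genes 60 to 62. With TPM as deposited, 9 of the 10 genes and 51 other pathway genes were at 1 TPM or more in both libraries. At a threshold of 5 coding TPM these numbers were 9 and 54. The share over all protein-coding genes was not computed under these settings. Some transcript shares rested on few counts, such as Hes1-203 on 1.86 and Notch1-207 on 1 in a library. The cause of these shifts was not tested.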

Other observations

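Notch4 was looked at more closely after its values were seen, because its coding TPM in replicate 2 was 5.63 times that in replicate 1. Its TMM-scaled counts were 1.999 times as high, just under the 2-fold mark. The coding transcript Notch4-201 held 28.37% of Notch4 TPM in replicate 2 and 74.22% in replicate 1. Processed transcripts held most of the rest in replicate 2, with 36.02% in Notch4-203, of 356 nt, on 11.66 counts, and 35.61% in Notch4-210, of 619 nt, on 46.12 counts. In replicate 1 Notch4-203 had 0 counts and Notch4-210 had 5.26 counts and 23.53% of TPM. By protein-coding transcripts alone Notch4 was at 4.36 coding TPM in replicate 2 and 2.07 in replicate 1, and the reason for the difference between the scales was not tested.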
